A study of Rattus norvegicus with 20 samples.

Results

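Loss of 1 copy of the chromosome segment homologous to human 16p11.2, the stretch from Sult1a1 to Spn, was compared with the intact segment in the hippocampus of female (XX) Long Evans (LE) rats. The members are 10 of the 20 libraries of the series, chosen by sex alone: 5 from rats labelled 16p11Del/+, written Del/+ here, and 5 from rats labelled wt. The other 10 libraries come from males and are used only where the sexes are compared. All female rats were 24 weeks old and of the same outbred stock, and Del/+ and wt animals were littermates. The deletion was made by CRISPR/Cas9 in zygotes and is inherited through the germline, so it is present in all cell types and at all ages of a carrier. The tissue was flash-frozen hippocampus.

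Deletions of the human 16p11.2 segment are a recurrent cause of neurodevelopmental disorder, including autism spectrum disorder and intellectual disability. The segment holds genes of several well studied pathways. Mapk3 encodes ERK1, a kinase at the end of the RAS to MAPK cascade. Kctd13 encodes an adaptor that brings the small GTPase RhoA to the ubiquitin ligase built on Cul3. Taok2 encodes a kinase that acts upstream of stress-activated MAP kinases and in dendrite formation. Prrt2 and Doc2a act in vesicle release at the presynaptic terminal. A carrier keeps 1 of 2 copies of each gene, so a gene with no adjustment of its output would show a log2 difference of -1.

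The 4 guide RNAs that cut the segment out are shown because they define the deletion, with capitals marking the bases that are also found on the opposite strand of the partner guide at the same end. At the 5′ end the guides shared 8 bases, and at the 3′ end they shared 18, so each pair targeted overlapping sites on opposite strands.
gR90 (5′ end): TGAGATTGatggccgcaaga
gR85 (5′ end): CAATCTCAcgtgtctgatgg
gR80 (3′ end): caTTCATTGCTCAGAGCGGC
gR76 (3′ end): caGCCGCTCTGAGCAATGAA

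Maz, inside the segment, encodes a zinc finger transcription factor that binds G-rich DNA at promoters. The promoters, each the 250 bases before the gene start in RefSeq's GRCr8 assembly, are shown so that its sites can be read, for Maz itself and for the 3 genes outside the segment with the smallest p-values in the comparison. Capitals mark GGGAGGG, a core of the G-rich sites Maz binds, and its other-strand form CCCTCCC, with overlapping matches counted.
Maz (chr1:191064890-191065139, minus strand, 6 matches): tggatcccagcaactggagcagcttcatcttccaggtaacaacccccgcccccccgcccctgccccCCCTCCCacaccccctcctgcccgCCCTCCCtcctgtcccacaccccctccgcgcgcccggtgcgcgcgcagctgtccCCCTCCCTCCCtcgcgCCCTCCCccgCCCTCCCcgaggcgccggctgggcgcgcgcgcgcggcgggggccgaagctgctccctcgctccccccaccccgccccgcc
Uchl3 (chr15:84899828-84900077, plus strand, 0 matches): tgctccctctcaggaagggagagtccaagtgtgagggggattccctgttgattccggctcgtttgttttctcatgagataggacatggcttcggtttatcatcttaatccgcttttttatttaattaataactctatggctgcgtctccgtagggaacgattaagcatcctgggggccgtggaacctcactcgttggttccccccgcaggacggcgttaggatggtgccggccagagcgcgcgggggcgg
Baiap3 (chr10:14777517-14777766, minus strand, 1 match): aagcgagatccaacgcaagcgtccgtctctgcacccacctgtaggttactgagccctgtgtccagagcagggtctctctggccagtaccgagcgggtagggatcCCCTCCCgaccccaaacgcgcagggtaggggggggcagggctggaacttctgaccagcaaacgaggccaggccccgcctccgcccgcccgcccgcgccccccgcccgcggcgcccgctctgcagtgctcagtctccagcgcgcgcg
Rad21l1 (chr3:160648717-160648966, minus strand, 2 matches): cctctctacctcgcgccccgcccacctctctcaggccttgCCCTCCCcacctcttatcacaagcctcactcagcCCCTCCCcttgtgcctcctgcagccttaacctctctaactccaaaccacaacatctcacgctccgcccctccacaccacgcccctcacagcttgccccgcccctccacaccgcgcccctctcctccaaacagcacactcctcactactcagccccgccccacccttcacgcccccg
The motif stood in 18.7% of the 33469 promoters of the table and in 25.8% of the 10859 that matched a tested gene. It stood in 10 of the 16 matched promoters of the segment, in 1 of the 8 matched promoters of the named outside genes that were higher in Del/+ and in 5 of the 8 of those that were lower. The named outside genes were chosen by p or size in these same libraries, and none passed the main test at an adjusted p below 0.05. No test of the motif was run, and these letters are a description of sequence and not of binding.

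Read counts per gene were compared between the groups, after scaling to a common library size, and are called normalized counts below. Of 32623 genes listed, 15590 had enough counts to be tested with edgeR's quasi-likelihood test, and a gene is called where its Benjamini-Hochberg adjusted p is below 0.05. Total counts ran from 38010233 to 46504611 in wt and from 37603623 to 47239480 in Del/+. No 2 libraries of the 45 pairs were alike within sampling noise. In 3 libraries, markers of another tissue or sex stood out most. Del/+ replicate 1 had a summed count of 134999 over 11 choroid plexus markers, although Otx2, a defining factor of that tissue, was at 0 in all 10. Next came wt replicate 5 at 8369, and the rest had 470.2 to 1366. Pericyte and meningeal sums were 20315 in Del/+ replicate 1, 20971 in wt replicate 3 and 19374 in wt replicate 5, against 9796 to 11799 in the rest. The fits without the 3 libraries that stood apart still hold wt replicate 5. wt replicate 3 had 20176 over 9 thalamus and habenula markers against 5553 to 9605. wt replicate 4 had Y-linked transcripts, with Kdm5d at 51.0 normalized counts against 7.44 or less in the other females and 1861 to 2214 in the males. The mitochondrial transcript AY172581.24 took 4.0% and 4.8% of counts in wt replicates 2 and 4 and 8.69% to 11.6% in the other 8 female libraries, and the group difference of 2.17 percentage points gave p = 0.238 in a two-sided exact permutation test over 252 splits, of which the smallest possible p is 0.00794.

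**Figure D1:**
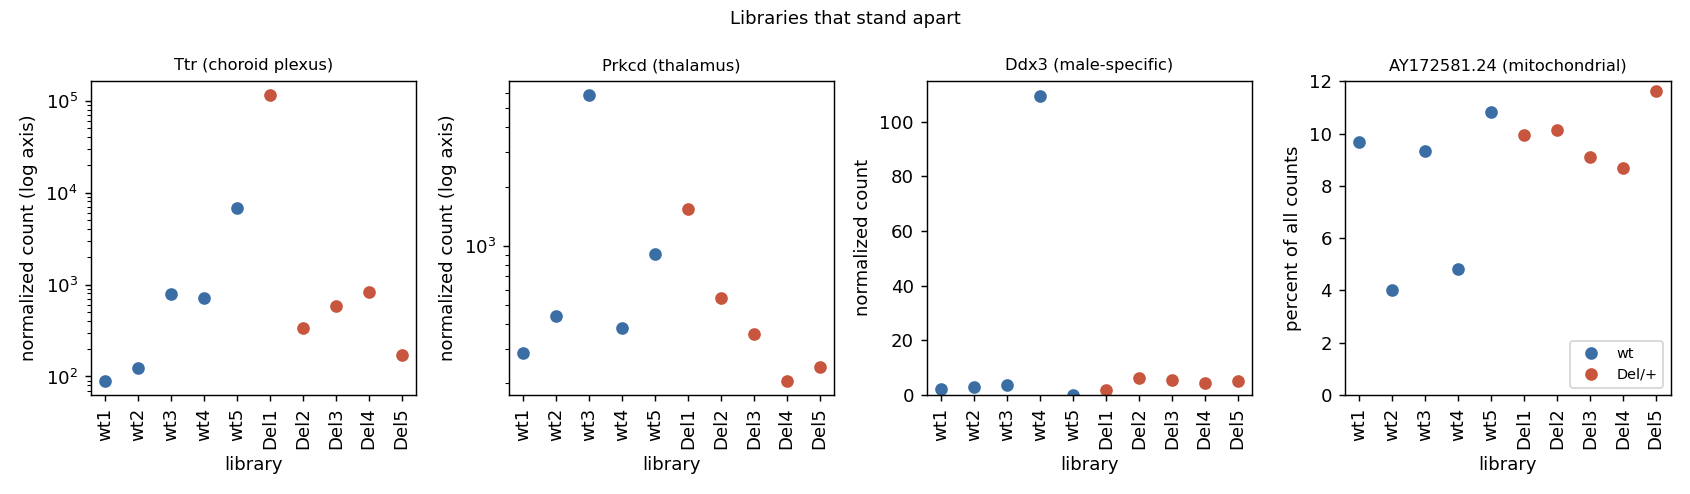
The panels show, for each of the 10 female libraries, the normalized counts of Ttr (choroid plexus) and Prkcd (thalamus) on log axes, those of the male-specific Ddx3 on a linear axis, and the share of counts on AY172581.24 in percent. Del/+ replicate 1 is the high point for Ttr (114266), wt replicate 3 for Prkcd (5818) and wt replicate 4 for Ddx3 (109.5), and wt replicates 2 and 4 have the lowest AY172581.24 shares.

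The comparison asked first how far the genes of the deleted segment lost expression in XX carriers. All 28 tested genes of the segment were lower in Del/+ than in wt, with a median log2 fold change of -0.98 against -0.01 over all tested genes. Of these, 19 fell with an adjusted p below the threshold, where 0.122% of all tested genes were called (the same 19 genes). The groups did not overlap for 26 of the 28, against 0.911% of all tested genes (0.532% with Del/+ below wt).

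**Figure D2:**
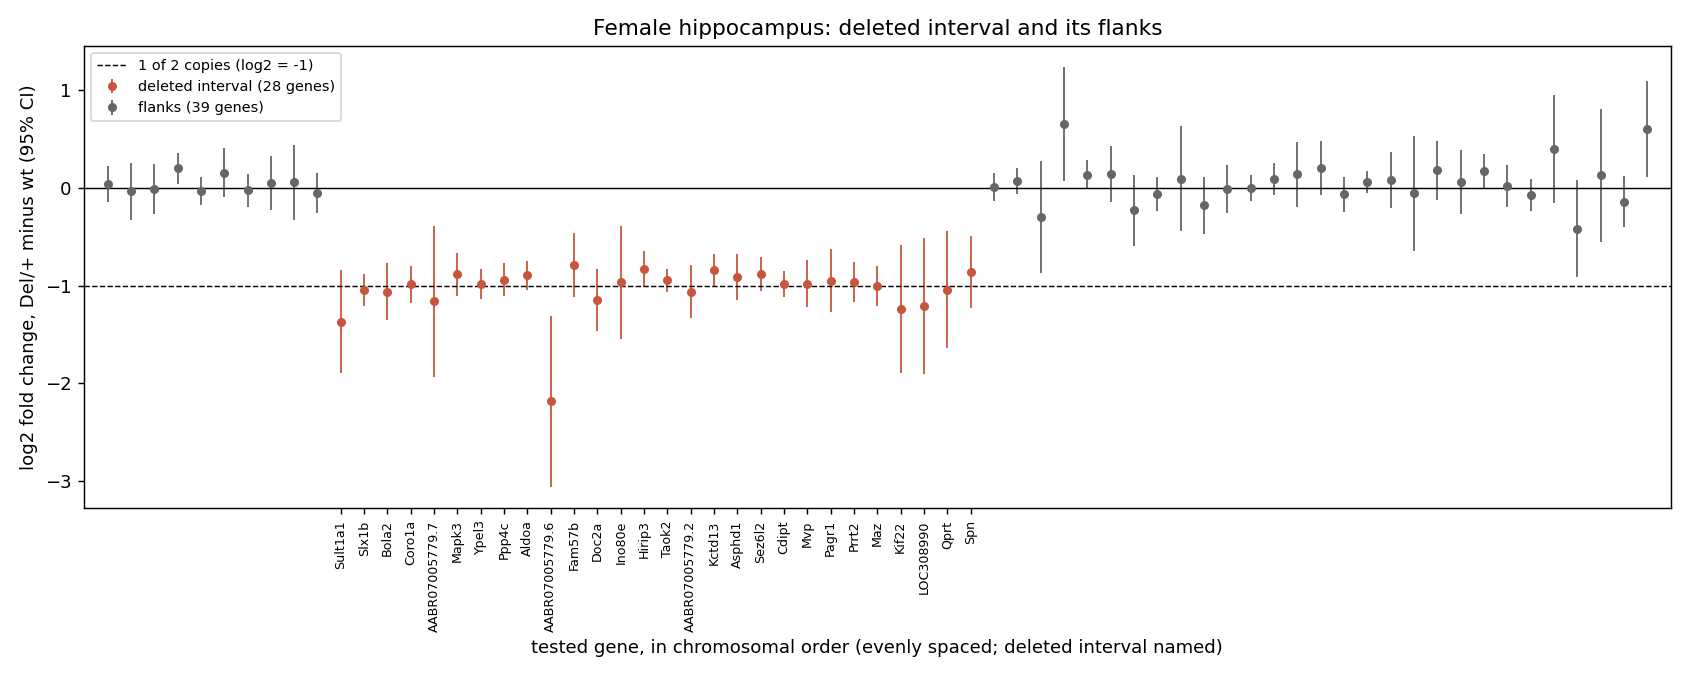
Female Del/+ minus wt log2 fold change, with 95% confidence intervals, of the tested genes of the deleted segment and its flanks, placed by gene order and not by distance, with names for the segment's genes. The 28 genes of the segment lie between -2.19 and -0.79, and the 39 genes of the flanks between -0.42 and 0.65.

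Among the signalling kinases, Taok2 gave the most precise value of the segment. Its normalized counts were 8271, 8320, 8719, 8176 and 8480 in the wt libraries and 4101, 4353, 4414, 4271 and 4608 in the Del/+ libraries. The spread within each group was small beside the gap between them. Taok2 fell with a log2 fold change of -0.95 (SE 0.05, edgeR adjusted p = 6.61e-07), the lowest adjusted p of all genes. Mapk3, the ERK1 gene, had 4048, 3654, 3951, 3350 and 4015 in wt and 1954, 2236, 1676, 1863 and 2574 in Del/+. Every Del/+ animal lay below every wt animal, Del/+ replicate 5 being the closest to wt. Mapk3 fell with a log2 fold change of -0.88 (SE 0.10, edgeR adjusted p = 6.99e-04). Ppp4c, the catalytic subunit of protein phosphatase 4, fell by 0.94 on the log2 scale.

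Kctd13, the adaptor of the Cul3 ligase, had 3281, 2689, 2909, 2968 and 3131 in wt and 1525, 1928, 1593, 1512 and 1779 in Del/+. The highest Del/+ animal was thus well under the lowest wt animal. Kctd13 fell by 0.85 on the log2 scale (SE 0.08, edgeR adjusted p = 5.48e-05), among the smaller losses of the called genes, of which only Hirip3 at -0.83 was smaller. Hirip3 encodes a histone-binding partner of the chaperone HIRA.

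The synaptic genes of the segment fell by like amounts. Prrt2, whose mutations cause paroxysmal movement disorder and infantile seizures, had 5928, 4881, 4940, 5344 and 6044 in wt and 2664, 3437, 2504, 2471 and 2857 in Del/+. Its log2 fold change was -0.96 (SE 0.09, edgeR adjusted p = 1.10e-04). Doc2a, a calcium sensor for spontaneous transmitter release, fell by 1.15 on the log2 scale, from 481 ± 69.0 to 217 ± 46.0 normalized counts (SD, n = 5 each). Sez6l2, a neuronal membrane protein, fell by 0.88, and its wt replicate 1 (22626) lay above the other wt libraries (17685 to 18819).

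The metabolic and structural genes included Aldoa, the glycolytic aldolase, with 55562, 60515, 53760, 51277 and 49682 in wt and 26857, 28269, 30245, 28193 and 31838 in Del/+. The highest Del/+ library lay far below the lowest wt library, and Aldoa fell by 0.90 on the log2 scale (SE 0.07, edgeR adjusted p = 8.60e-06). Cdipt, which makes phosphatidylinositol, fell by 0.98 (SE 0.06, edgeR adjusted p = 1.63e-06). Coro1a, an actin regulator best known in leukocytes, fell by 0.99. Mvp, the main protein of vault particles, fell by 0.98, and Bola2, an iron-sulphur cluster factor, by 1.06.

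Of the nuclear genes, Maz had 1152, 1207, 1328, 1104 and 1231 in wt and 614, 729, 580, 498 and 586 in Del/+. The 2 sets did not overlap, and the fall was 1.0 on the log2 scale (SE 0.09, edgeR adjusted p = 5.48e-05). Pagr1, a partner of histone methyltransferases, fell by 0.95 (edgeR adjusted p = 0.0147, 0.0663 with the AY172581.24 share as a covariate and up to 0.0837 with 1 library left out), and Slx1b, a subunit of a structure-specific nuclease, by 1.04. Ypel3 fell by 0.98, Asphd1 by 0.91 and AABR07005779.2 by 1.06, with adjusted p-values of 5.67e-06, 6.99e-04 and 7.15e-04 in edgeR.

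The other tested genes of the segment did not pass in edgeR. DESeq2 called 5 of them, namely Sult1a1 (adjusted p = 5.95e-07), Fam57b (9.77e-04), Spn (0.0053), AABR07005779.6 (0.016) and Kif22 (0.049). Sult1a1, a phenol sulfotransferase at one end of the deletion, had 627, 675, 487, 515 and 428 in wt and 257, 303, 109, 160 and 230 in Del/+. The groups were apart but the Del/+ values spread widely, and the log2 fold change of -1.37 (SE 0.24) had an edgeR adjusted p of 0.0785. Sult1a1 belongs to a family of similar genes, and its reads may be shared with them. Spn, which encodes the leukocyte surface protein CD43 and marks the other end, had a log2 fold change of -0.86 (edgeR adjusted p = 0.137). Fam57b, which takes part in ceramide metabolism, gave -0.79 (0.114). Ino80e, a subunit of the INO80 chromatin remodeller, gave -0.97 (0.767), with values from 2037 to 2914 in wt and from 660 to 1707 in Del/+. The mitotic kinesin Kif22, the NAD synthesis enzyme Qprt, LOC308990 and the short models AABR07005779.6 and AABR07005779.7 made up the rest, with wt means from 18.8 to 58.8 normalized counts.
The matched genes Gdpd3, Tbx6, Zg16 and LOC102552638 had too few counts to be tested. Gdpd3 had 5.1 to 9.0 normalized counts in wt and 0 to 3.7 in Del/+.

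**Figure D3:**
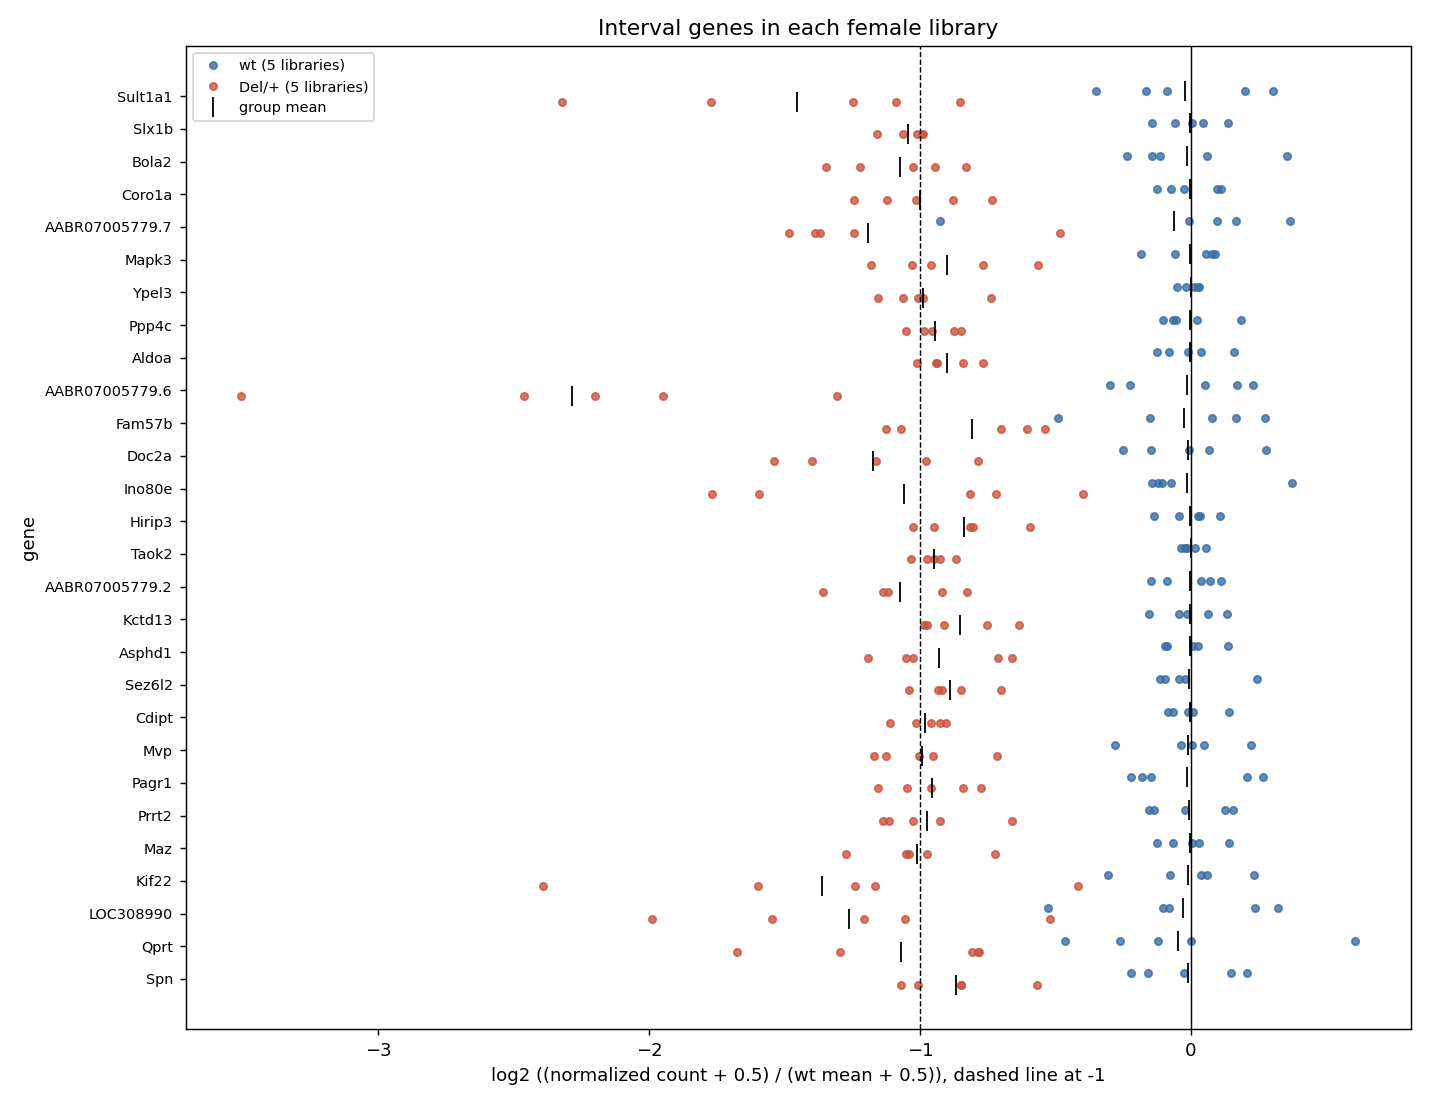
Normalized counts of the 28 tested genes of the segment in each female library, as the log2 ratio to the gene's wt mean after adding 0.5, with group means as bars. Del/+ points gather around the dashed line at -1, and those of Ino80e and Sult1a1 are more widely spread than those of Taok2.

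Each gene was then tested against a log2 fold change of -1, the value for an output that follows copy number. Of the 28 confidence intervals, 27 held -1, and estimates lay above it for 17 genes and below it for 11. The exception was AABR07005779.6, a model with 15.2 to 22.1 normalized counts in wt and 1.2 to 7.3 in Del/+, with a log2 fold change of -2.19 and an edgeR adjusted p of 0.0127 for the departure. Over all tested genes 92.0% departed from -1 (92.3% before adjustment), as most genes lie near 0. The adjustment ran over all of these genes, so it moved the unadjusted edgeR p of 0.0111 for AABR07005779.6 little. Of the 28 genes, 1 had an unadjusted p below 0.05, and no adjustment over the 28 alone was made. The same holds for the adjustment in the fits with 1 library left out. Leaving out wt replicate 1 added Kctd13 and Sez6l2, leaving out Del/+ replicate 4 added Kctd13 and Hirip3, leaving out Del/+ replicate 1 added Kctd13, and leaving out Del/+ replicate 2 added Sult1a1.

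The size of the loss was compared between the sexes by a test of the difference itself (edgeR, genotype by sex interaction), in which 0.0618% of 16193 genes were called. No gene of the segment passed. Maz had the lowest adjusted p, 0.0817, with a log2 fold change of -1.0 in females and -1.50 in males. An unadjusted p below 0.05 was found for 8 of them, where 16.2% of all genes had one.

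Genes on either side of the deletion, up to 69 genes from it in RefSeq order, had log2 fold changes from -0.42 to 0.65. Of 39 tested neighbours, 0 were called by edgeR and the median log2 fold change was 0.05. An unadjusted p below 0.05 was found for 4, each higher in Del/+, where 3.25% of outside genes were higher at that p. The count was 1 of 39 with the AY172581.24 share as a covariate, 1 without the 3 libraries that stood apart and 1 without wt replicates 2 and 4. In these fits 1.03%, 1.52% and 0.88% of outside genes were higher at that p. The 4 genes with all 10 libraries included Sh2b1 (0.20), a signalling adaptor in body weight control, the septin Sept1 (0.65) and the glucose transporter Slc5a2 (0.60). Of the 39, only Slc5a2 had groups that did not overlap, against 0.745% of outside genes. Scaling by library size alone gave the neighbours a median of -0.05, but it moved all genes down to a median of -0.11, and relative to all genes the neighbours stood at 0.062 under it and at 0.057 in the main scaling.

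Outside the segment, the question was which of 15562 genes differed between Del/+ and wt females. None was called by edgeR. In bulk tissue, a lower level of such a gene through fewer cells of a type and through less RNA per cell cannot be told apart. An unadjusted p below 0.05 was found for 961 genes (6.18%), 505 higher and 456 lower in Del/+. The groups did not overlap for 116 genes (0.745%), 59 higher (0.379%) and 57 lower (0.366%). DESeq2 called 6, namely Uchl3 and Naa80 higher and Otop3, Baiap3, Rad21l1 and Gltpd2 lower. With scaling by library size alone, which moved the median of all genes to -0.11, 0.334% of outside genes were higher and 9.31% lower at an unadjusted p below 0.05, against 3.25% and 2.93% with the main scaling.

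**Figure D4:**
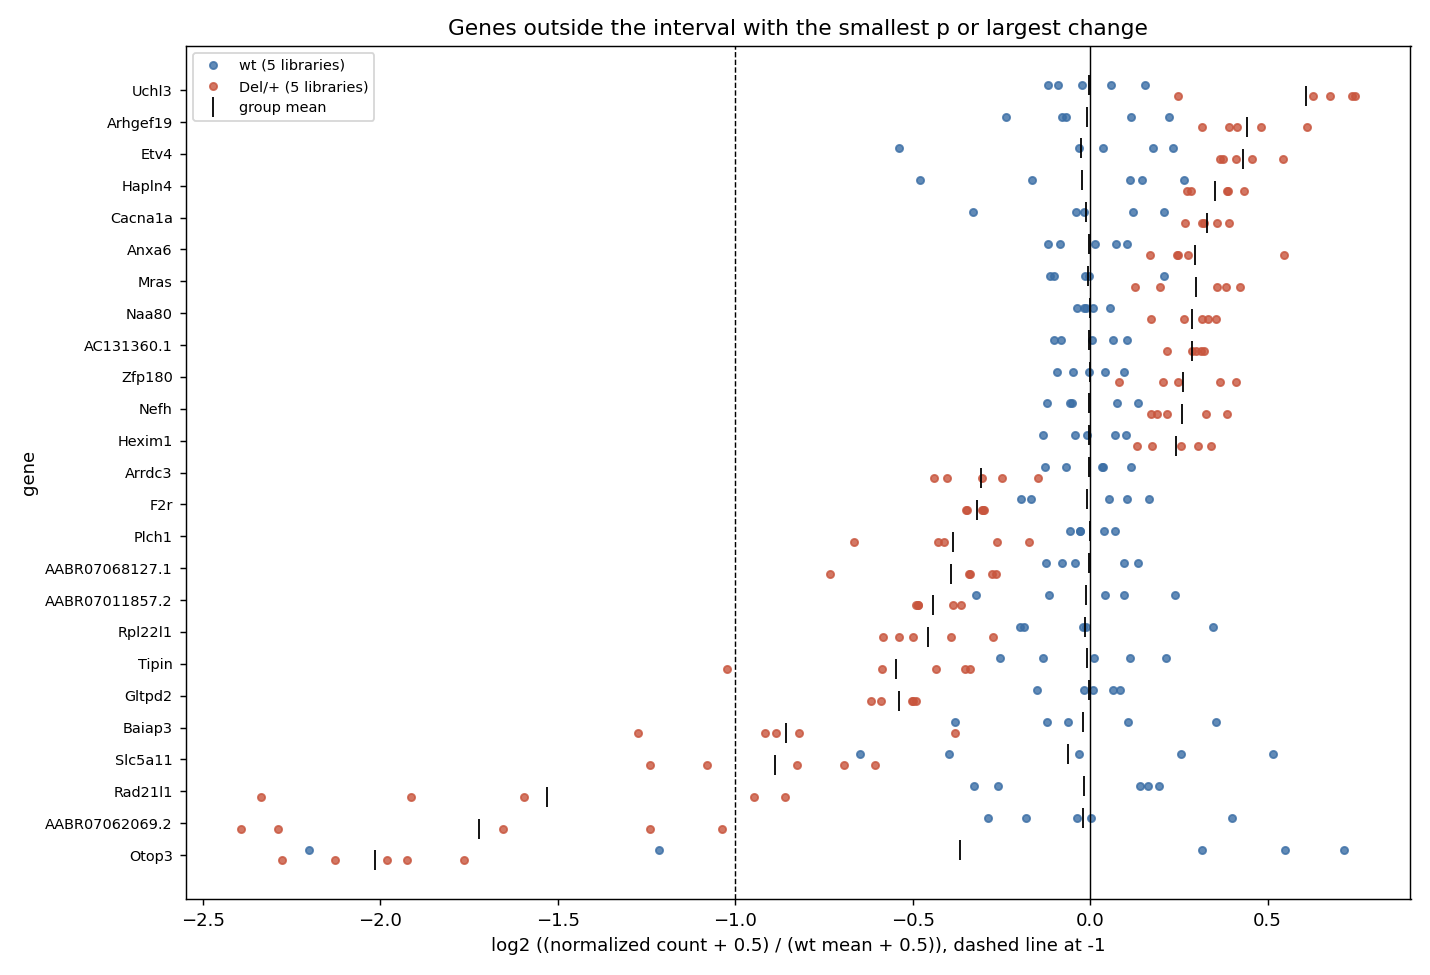
Normalized counts in each female library, as the log2 ratio to the gene's wt mean after adding 0.5, for the 25 outside genes named for a small p or a large change, with group means as bars. Del/+ points of Uchl3 all lie above and those of Gltpd2 all below the wt points, 1 wt library of Otop3 lies among its Del/+ values, and no gene shown was called by edgeR.

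Uchl3, a ubiquitin hydrolase that also acts on NEDD8, had the lowest adjusted p outside the segment. Its normalized counts were 152, 163, 155, 184 and 172 in wt and 197, 277, 256, 278 and 264 in Del/+. The Del/+ libraries were all higher, and Del/+ replicate 1, the library with choroid plexus markers, was the one nearest to wt. The log2 fold change was 0.62 (95% confidence interval 0.35 to 0.89, edgeR adjusted p = 0.144). It was 0.70 with an adjusted p of 0.0316 without that library, the lowest of the 10 fits with 1 library left out, which reached 0.469. In males the log2 fold change was -0.12, and the difference between the sexes had an adjusted p of 0.0652.

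Naa80, the enzyme that acetylates the end of actin, had 605, 586, 625, 594 and 597 in wt and 758, 749, 677, 723 and 770 in Del/+. Both groups were tight and did not overlap. Its log2 fold change was 0.29 (95% confidence interval 0.14 to 0.44, edgeR adjusted p = 0.447). Other genes with higher Del/+ values included Arhgef19, a guanine nucleotide exchange factor (0.45), Mras, a RAS relative (0.30, groups overlapping), Etv4, an ETS factor that acts after ERK signalling (0.44), and Hexim1, an inhibitor of the elongation factor P-TEFb (0.24). None of these 4 passed, with edgeR adjusted p-values from 0.549 to 0.767.

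Neuronal genes were also among those named. Cacna1a, the pore subunit of P/Q-type calcium channels, had 9112, 6662, 8286, 8156 and 9689 in wt and 10994, 10081, 10469, 10734 and 10429 in Del/+. Its wt values spread more widely than its Del/+ values, the lowest being wt replicate 2, and the log2 fold change was 0.33 (edgeR adjusted p = 0.631). Nefh, the heavy neurofilament chain, gave 0.26, and Hapln4, a link protein of perineuronal nets, gave 0.35, lowest again in wt replicate 2 (6562), and 0.22 with the AY172581.24 share as a covariate. Anxa6, a calcium-dependent membrane-binding protein, had 7982, 8161, 7162, 7000 and 7668 in wt and 8539, 9000, 9192, 9021 and 11082 in Del/+. Its log2 fold change was 0.30 in females (edgeR adjusted p = 0.577) and -0.31 in males, and the difference of 0.62 passed the interaction test (edgeR adjusted p = 0.0221), in which no outside gene passed once the AY172581.24 share was a covariate. The zinc finger gene Zfp180 (0.27) and AC131360.1 (0.29) completed the genes named for higher values.

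Among the genes with lower values, Baiap3, a Munc13 relative in dense-core vesicle release, had 264, 352, 297, 211 and 253 in wt and 146, 156, 149, 114 and 211 in Del/+. The highest Del/+ library, replicate 5, almost reached the lowest wt library. The log2 fold change was -0.83 (95% confidence interval -1.20 to -0.46, edgeR adjusted p = 0.166), and -0.94 with 0.0247 under scaling by library size alone. It was -0.96 with an adjusted p of 0.0379 without Del/+ replicate 5, the lowest of the 10 fits with 1 library left out, which reached 0.545. In males it was 0.42, with an adjusted p of 0.117 for the difference.

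Rad21l1, a cohesin subunit of meiosis, had 45.1, 31.3, 43.5, 44.2 and 32.8 in wt and 12.7, 21.5, 7.4, 20.2 and 10.1 in Del/+. All Del/+ libraries were below all wt libraries, at low counts. The log2 fold change was -1.47 (SE 0.32, edgeR adjusted p = 0.236) in females and -1.39 in males, and fitting all 20 libraries together gave an adjusted p of 0.0479 in females. Gltpd2, of the glycolipid transfer protein family, had 191, 181, 165, 194 and 184 in wt and 130, 129, 129, 119 and 122 in Del/+. Its groups were tight and apart, and the log2 fold change was -0.54 (SE 0.12, edgeR adjusted p = 0.242).

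Otop3, of the otopetrin proton channel family, had 38.1, 146.6, 111.0, 130.6 and 19.0 in wt and 20, 18, 22.2, 25.9 and 23.1 in Del/+. The wt replicates 2, 3 and 4 were high, and the wt animal at 19.0 fell among the Del/+ values. Its log2 fold change was -2.02 (edgeR adjusted p = 0.476), and -2.28 with 0.00888 without wt replicate 5. That was the lowest adjusted p of the 10 fits with 1 library left out, which reached 0.985. With the AY172581.24 share as a covariate it was -1.27, and wt replicates 2 and 4 were the libraries with the lowest share. F2r, the thrombin receptor (-0.32), Arrdc3, an arrestin-domain adaptor (-0.30), Plch1, a phospholipase C (-0.38), Slc5a11, an inositol transporter (-0.87, groups overlapping), Tipin, of the replication fork complex (-0.53), and the ribosomal protein relative Rpl22l1 (-0.46) had lower Del/+ means, with adjusted p-values from 0.434 to 0.767 in edgeR. The unnamed models AABR07068127.1 (-0.38), AABR07062069.2 (-1.67) and AABR07011857.2 (-0.44) were also lower and did not pass. Without the 3 libraries that stood apart, 1 outside gene was called, LOC679881, which was chosen after its values were seen, and 576 had an unadjusted p below 0.05.

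The partners and relatives of the segment's genes were measured from lists chosen for their function. Map2k1, the kinase that activates ERK1, had 11305, 10750, 12221, 10877 and 9895 in wt and 10503, 9494, 11309, 12622 and 11113 in Del/+. The ranges overlapped, and its log2 fold change of -0.00021 had a 95% confidence interval of -0.17 to 0.17. Cul3, the scaffold of the ubiquitin ligase, gave -0.03 and Rhoa gave 0.08. The Kctd13 relatives Kctd10 (0.06) and Tnfaip1 (-0.01), the Taok2 relatives Taok1 (0.04) and Taok3 (0.11) and the brain aldolase Aldoc (-0.08) all had intervals that held 0. Under scaling by library size alone Rhoa, Kctd10, Taok1 and Taok3 lay below 0, where the median of all genes was -0.11, so these signs are those of the scaling.

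No gene of these lists was called by edgeR, and the counts below are of genes with an unadjusted p below 0.05. In the main fit 3.25% of outside genes had one with a higher and 2.93% with a lower value. Of the 37 paralogues tested, 2 were higher and 0 lower at an unadjusted p below 0.05, with a median log2 fold change of 0.02. Sult2b1, a hydroxysteroid sulfotransferase, gave 0.38 and Coro1c 0.14. In the ERK cascade, 4 of 44 genes were higher and 1 lower, with a median of 0.05. Mknk2, a kinase that ERK activates, had 1634 to 2070 in wt and 2072 to 2304 in Del/+ (0.22), and Spry1, an inhibitor of the cascade, gave -0.34. Among the genes of the Cul3, Kctd13 and RhoA pathway, 3 of 41 were higher and 2 lower, with a median of -0.02. Nae1, of the enzyme that starts NEDD8 attachment to cullins, gave -0.31, the RhoA effector Rock1 -0.29 and the actin nucleator Diaph1 0.18.

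In the excitatory synapse list, 35 of 51 genes had a higher mean in Del/+, with a median of 0.11, and 8 were higher and 2 lower at an unadjusted p below 0.05. Camk2b, a calmodulin kinase subunit of the postsynapse, had 41760 to 59707 in wt and 58629 to 67465 in Del/+ (0.25), and the AMPA receptor subunit gene Gria4 gave -0.19. With the AY172581.24 share as a covariate the 8 became 0 and the median 0.06, and without the 3 libraries that stood apart they were 2 and 0.07. In those fits 1.03% and 1.52% of all outside genes were higher at that p, against 3.25% in the main fit. The genes of the list with a higher mean numbered 39 and 35 in them. In the synaptic vesicle list 31 of 40 genes were higher in mean, with a median of 0.10, and 4 were higher and 1 lower at an unadjusted p below 0.05. The 4 became 1 with the share as a covariate, 1 without the 3 libraries and 0 without wt replicates 2 and 4. The shares of all outside genes higher at that p were 1.03%, 1.52% and 0.88% in the same fits. The vesicle priming genes Unc13a (0.21) and Unc13b (-0.23) lay in opposite directions. Under scaling by library size alone these medians were 0.0047 and -0.012, while that of all genes was -0.11. With the share as a covariate the higher genes numbered 0 of 37 among the paralogues, 2 of 44 in the ERK cascade and 0 of 41 in the Cul3, Kctd13 and RhoA list. That fit had 1.03% of all outside genes higher at an unadjusted p below 0.05. The part of the AY172581.24 share in these values was not tested beyond these fits.

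In the GABA list, 1 of 32 genes had an unadjusted p below 0.05, Calb2, the interneuron calcium buffer calretinin, at -0.57 (median 0.01). Calb2 also stands in the thalamus and habenula list and was highest in wt replicate 3 (612 normalized counts). Of 29 immediate early genes, Fosb (0.51) and Egr3 (0.27) were higher at an unadjusted p below 0.05 (median -0.00074), and Fosb ran from 261 to 319 in wt and from 247 to 615 in Del/+. Of 40 hormone receptor and neuropeptide genes, 3 were higher, among them the retinoic acid receptor gene Rara (0.23), and 3 lower, among them the tachykinin precursor Tac1 (-0.66) and the opiomelanocortin precursor Pomc (-0.65).

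Of 47 oxidative phosphorylation genes of the nucleus, 2 were higher and 1 lower, with Atp5f1d, a subunit of ATP synthase, at 0.31 and Cox7c, of cytochrome oxidase, at -0.19 (median -0.01). None of 46 ciliary genes had an unadjusted p below 0.05 (median -0.02), but without the 3 libraries that stood apart 8 were lower and 0 higher, where 2.17% of outside genes were lower, and the median was -0.16 with 35 of 46 genes lower in mean. Of 36 immune genes, 29 had a lower mean, with a median of -0.11, and the 2 with an unadjusted p below 0.05 were Isg15 (-0.60), an interferon-induced ubiquitin relative, and Tlr4 (-0.40), the endotoxin receptor. Of 22 tested genes that the study had named outside the segment, Rad21l1 alone had an unadjusted p below 0.05. The study named Rad21l1 from males of another strain (Sprague Dawley), as lower with the deletion and higher with the duplication. Whether these female libraries had a part in the naming of other listed genes was not checked.

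**Figure D5:**
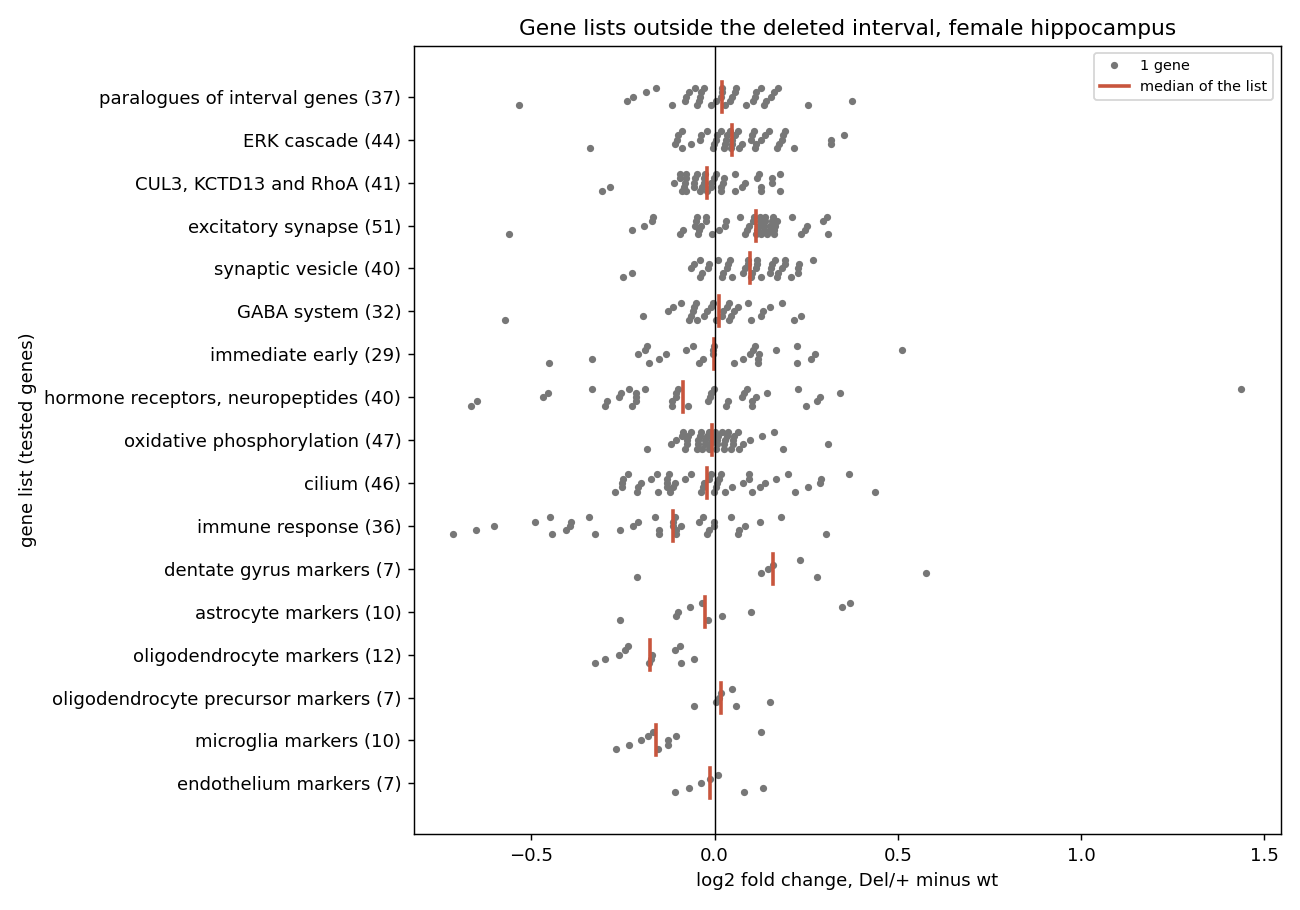
Female Del/+ minus wt log2 fold changes of the tested genes of each list, 1 point a gene, with the list's median. Medians of the functional lists lie between -0.11 and 0.11, against -0.01 over all tested genes, and those of the cell type lists shown between -0.18 and 0.16.

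Marker lists for hippocampal cell types gave the composition beside which these values stand. All 12 oligodendrocyte markers had a lower mean in Del/+, with a median of -0.18 and 0 of 12 at an unadjusted p below 0.05. Their summed counts ran from 188088 to 330653 in wt and from 161297 to 252267 in Del/+, the highest being wt replicate 5. Of 10 microglial markers 9 were lower, with a median of -0.16, and 2 had an unadjusted p below 0.05, among them Aif1 (-0.27), which encodes the microglial protein IBA1. Astrocyte (-0.03), oligodendrocyte precursor (0.02), endothelial (-0.01), striatal (-0.08) and cortical (0.03) markers had medians near that of all genes. Dentate gyrus markers had a median of 0.16, with Dsp, a desmosome protein, at 0.58 and Calb1 at -0.21, and the median was 0.074 with the AY172581.24 share as a covariate and 0.036 without wt replicates 2 and 4. CA1 markers had a median of 0.15, and CA2 and CA3 markers of -0.06. Pericyte and meningeal markers (-0.20), blood markers (-0.38), thalamus and habenula markers (-0.54) and choroid plexus markers (2.82) completed the lists. In choroid plexus and thalamus markers, single libraries set the sums, as given above. The part of cell composition in the gene values above was not tested.

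The precision outside the segment was set by 5 animals a group. The 95% confidence interval of the log2 fold change lay inside a 2-fold change in either direction for 89.1% of outside genes and inside 1.5-fold for 73.9%. Among genes with a mean of at least 100 normalized counts these shares were 98% and 90.9%.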

How the data were processed

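Female and male hippocampal poly(A) RNA was sequenced by the authors as 50-base single-end reads (bcl2fastq 2.17.1.14, HISAT2 and HTSeq to the Rno6 genome), and the deposited values are raw read counts per gene, not normalized, 1 file a library. Counting settings are not given in the sources used here. Depth was 37603623 to 47239480 counts in the 10 female libraries, which limits precision for low genes, and intervals cover the spread between animals. Counts were analysed in R 4.3.3 with edgeR 4.0.16 (TMM scaling, filterByExpr with a minimum count of 10, robust quasi-likelihood test, Benjamini-Hochberg adjustment, adjusted p below 0.05). Departure from 1 copy was tested by lowering the offsets. The sexes were compared in 1 fit of 20 libraries. Alternatives used DESeq2 1.42.0, limma 3.58.1 and sva 3.50.0, other scalings and filters, a replicate block, the AY172581.24 share, and each library left out. The code was tested on simulated data. Promoters came from RefSeq GRCr8, and no GRCr8 coordinates were joined to Rno6 values.

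Named outside genes were the 10 smallest p-values in each direction, the 5 largest changes in each direction without overlap of groups at a mean of at least 100 normalized counts, and 9 pathway genes. In each other list they were the smallest p in each direction and the gene with most counts, and further members are named where few had an unadjusted p below 0.05. Members and lists were chosen with earlier results of these data known. Of 33 genes listed for the segment 32 were matched, and Tmem219 was not matched. Results for some genes are not reported here.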

Additional observations from a re-analysis of the deposited data

Results flagged for a closer look

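In 6 of 126 groups of values, 1 library lay far from the other 4, where chance alone gives about 1 in 20. In the segment these were AABR07005779.7 in Del/+ replicate 3 (13.9 normalized counts, the next library at 8.04), Ino80e in wt replicate 1 (2914, next 2137) and Sez6l2 in wt replicate 1 (22626, next 18819). Outside it they were Uchl3 in Del/+ replicate 1 (197, next 256), Anxa6 in Del/+ replicate 5 (11082, next 9192) and AABR07068127.1 in Del/+ replicate 3 (1568, next 2058).

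The Del/+ minus wt difference of Anxa6 differed between the sexes by 0.62 on the log2 scale (female 0.30, male -0.31, edgeR interaction adjusted p = 0.0221). No outside gene passed this test with the AY172581.24 share as a covariate. None passed either when male wt replicate 1, 3 or 4 or male Del/+ replicate 2 was left out. The highest female value of Anxa6 was Del/+ replicate 5.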

How the results depend on the processing

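Between 17 and 24 genes of the segment were called over the alternatives, and their median log2 fold change ran from -1.09 (library size alone) to -0.95. The count of all called genes was 30 with DESeq2. Outside the segment the count of called genes was 1 with library size alone (Baiap3), 6 with DESeq2, 1 with all 20 libraries (Rad21l1), 1 without the 3 libraries that stood apart (LOC679881) and 0 to 1 when each library was left out. Leaving out these 3 libraries (Del/+ replicate 1, wt replicates 3 and 4) and leaving out wt replicates 2 and 4 (0 outside genes called) were alternatives chosen after seeing the data. Departures from -1 in the segment, adjusted over all tested genes and not over the segment alone, ranged from 1 to 3 when each library was left out. Genes whose effect differed by sex numbered 20 with DESeq2 size factors, 999 with library size alone, 6 with the replicate block, 0 with the AY172581.24 share as a covariate and 0 to 319 when each library was left out. The cause of these differences was not tested.

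The 25 outside genes named by p or size kept their direction in every alternative. They were chosen in the same libraries that each alternative refits, all or most of them, so their direction was largely fixed in advance. Among the 9 fixed pathway genes, Rhoa, Kctd10 and Taok3 changed sign only with library size alone, a scaling that moved the median of all genes to -0.11, and 5 others with values near 0 changed sign elsewhere. Map2k1 gave 0.0050 with DESeq2 size factors, 0.0067 with DESeq2, 0.0023 with no filter, 0.013 with the share covariate, 0.0040 with 1 surrogate variable, 0.0017 with all 20 libraries and 0.065 without the 3 libraries. Library size alone gave Rhoa -0.030, Kctd10 -0.050, Taok3 -0.0045 and Taok1 -0.063. The share covariate gave Aldoc 0.0020, Cul3 0.017 and Tnfaip1 0.049. Tnfaip1 gave 0.00068 with 1 surrogate variable and 0.039 without the 3 libraries. Without wt replicates 2 and 4, Aldoc gave 0.0099, Cul3 0.024 and Tnfaip1 0.058. When each library was left out, Map2k1 ran from -0.051 to 0.049, Aldoc from -0.15 to 0.022, Tnfaip1 from -0.053 to 0.040, Taok1 from -0.0034 to 0.075 and Cul3 from -0.060 to 0.027.

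The labels do not say whether the replicate numbers pair the animals. Deviations of same-numbered wt and Del/+ libraries correlated at 0.01, -0.06, 0.02, 0.10 and -0.21, and those of differently numbered ones at -0.29 to 0.29. With 5 libraries a group, these values cannot show whether the numbers pair the animals. With the replicate block, 18 of the 19 called genes of the segment passed, 0 outside genes did and 880 had an unadjusted p below 0.05. Low counts limit genes such as Rad21l1 and AABR07005779.6.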

Other observations

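The 13 mitochondrially encoded protein genes had a median log2 fold change of 0.21 in Del/+ females, 11 higher and 2 lower, from -0.12 to 0.36. None was called, and none had an unadjusted p below 0.05. All mitochondrially encoded genes together took 14.5% ± 5.25 of counts in wt and 18.7% ± 2.53 in Del/+ (SD, n = 5 each, two-sided exact permutation p = 0.167).

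Npy, a neuropeptide gene of hippocampal interneurons, was listed at 0 in all 10 female libraries, so nothing can be read about it here. Prlr, the prolactin receptor gene, had 490.6 normalized counts in Del/+ replicate 1, the library with choroid plexus markers, and 2.2 to 33.8 in the other 9. Trh, the thyrotropin-releasing hormone precursor, ran from 10.1 to 135.8 in wt and from 15.1 to 517.6 in Del/+, with overlapping groups.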
